A study of Anas platyrhynchos with 6 samples.

Results

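Single-exon circles are exonic circular RNAs in which the end of 1 exon is joined to the start of that same exon. They were taken as the entries of the deposited table that the authors typed as exonic and listed with an exon count of 1. Entries with the same chromosome, end and strand whose starts lay 1 base apart were counted as 1 junction. This gave 673 single-exon junctions, listed under 759 IDs, among 11341 exonic junctions (5.93%) and 14929 junctions of all types (4.51%). In 35 of the 673, with 552 reads, the ends were not those of the listed exon. For these the span of the junction was taken as the length. The remaining 10668 exonic junctions joined ends of different exons and are called multi-exon circles.

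The circular RNAs were sequenced from breast muscle (pectoralis) of female Shan Ma duck embryos, with 3 embryos at embryonic day 19 (E19) and 3 at embryonic day 13 (E13). Each library came from 1 embryo of the same egg stock, and total RNA was depleted of ribosomal RNA and digested with RNase R, an exonuclease that removes linear RNA. No treatment or mutation separated the stages, which differ in embryonic age. The comparison asked how single-exon circles differ between a stage at which muscle fibres have formed and one at which most muscle cells are still myoblasts.

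A circular RNA arises when the spliceosome joins a downstream 5′ splice site (the donor at an exon's end) to an upstream 3′ splice site (the acceptor at an exon's start), a reaction called back-splicing. A single exon can be circularized in this way only if its own acceptor and donor meet. In mammals the exons that form such circles are known to be longer than most exons, and long introns with paired repeats on both sides are known to favour the reaction. Circular RNAs have no free ends and are more stable than their linear counterparts, so they can accumulate in differentiating tissue.

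Reads that cross the back-splice junction were the unit of measurement. The 3 E19 libraries held 58292, 69738 and 49587 back-splice reads of all types, and the 3 E13 libraries held 58647, 36506 and 47191. Of these, 1512, 1496 and 1246 reads at E19 and 1454, 1115 and 1352 reads at E13 came from single-exon circles. Most members were rare. The median was 3 reads over the 6 libraries, 441 members (65.5%) had reads in 1 library, and 37 (5.5%) had reads in all 6 libraries. Multi-exon circles were alike, with a median of 3 reads, 61.1% in 1 library and 7.82% in all 6. Hosts from a list of 20 skeletal muscle genes gave 299, 435 and 256 exonic back-splice reads at E19 and 201, 124 and 171 at E13 (9 of the 20 genes). Hosts from a list of 10 nerve and Schwann cell genes gave at least 113 reads in each E19 library and at most 80 in each E13 library, and hosts from lists of connective tissue, blood, endothelium, fat and liver genes gave at most 14 reads in any library. The part of cell composition in the stage differences was not tested. Single-exon circles gave at most 8 reads for any of these lists, among them circles of LDB3, MYOM3, COL1A2, ANK1 and SPTB.

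Single-exon circles came most often from exons with low numbers. An exon number in the listed transcript was given for 626 members. Exon 2 was the most frequent, with 169 members (27%), followed by exon 3 with 94 (15%), exon 4 with 53 (8.47%) and exon 1 with 49 (7.83%). The share of reads was more uneven than the share of junctions, since exon 2 held 43.5% and exon 1 held 20.8% of the 7563 reads of these members. The highest exon number was 82 and the median was 4. For multi-exon circles the number of the first exon had the same median of 4. Exon 1 made up 11.4% ± 1.84 of the single-exon junctions of a library, against 6.34% ± 0.408 of the first exons of multi-exon junctions (SD over 6 libraries). Exon 2 made up 32.6% ± 3.21 of single-exon junctions, against 26.2% ± 0.804 of multi-exon ones. Both shares were higher among single-exon circles in 6 of 6 libraries (exact sign-flip permutation test, two-sided, p = 0.03125, the smallest that 6 libraries can give). Libraries share junctions, and the exon number, length and flanking introns of a junction are fixed. For these traits the p and the SD cover spread between libraries, not between exons or genes. Weighted by reads, exon 1 was still higher (20.7% ± 2.63 against 5.35% ± 0.495, p = 0.03125 by the same exact test), whereas exon 2 was at 43.9% ± 3.37 against 41.7% ± 2.38 and higher in 4 of 6 libraries (exact p = 0.3125). A single circle, that of KAT6B, gave 665 of the 1571 exon 1 reads over the 6 libraries. The weighted test was not repeated without that circle. An annotated exon 1 has no acceptor upstream of it in its transcript, and whether the 49 exons numbered 1 have unannotated exons before them was not tested.

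**Figure D1:**
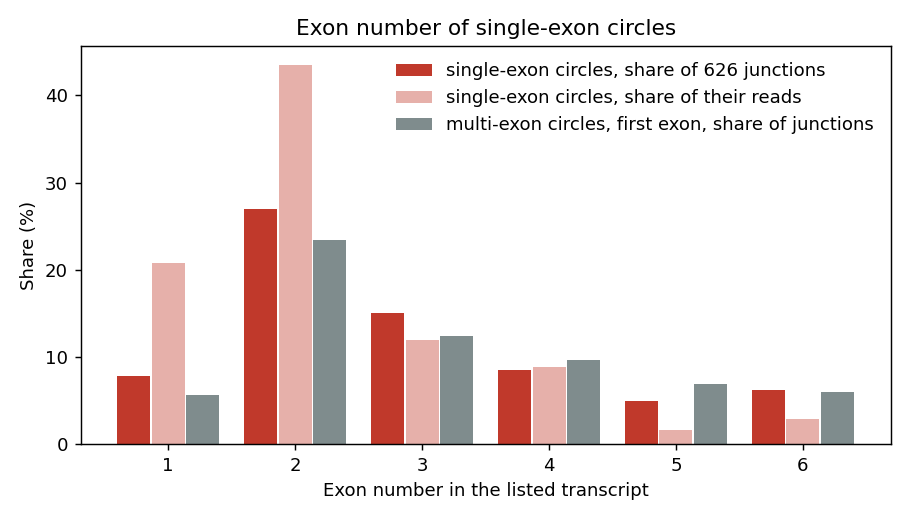
Share (%) of single-exon circles at each exon number of the listed transcript, exons 1 to 6, as a share of the 626 junctions with an exon number (dark red) and of their reads (light red), and the first exon of multi-exon circles as a share of 9550 junctions (grey). Exon 2 holds 27% of single-exon junctions and 43.5% of their reads, and 23.4% of multi-exon circles begin there.

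The circularized exons were long. The study selected library fragments by size, and the part of that selection in the lengths found was not tested. The 673 members measured 111 to 3353 bases, with a median of 236 and quartiles of 185 and 406 bases. Within libraries their median length was 281.5 ± 8.97 bases, against 125.8 ± 0.757 bases for the mean exon length of multi-exon circles (SD over 6 libraries), and the members were longer in 6 of 6 libraries (exact sign-flip permutation test, p = 0.03125). As the libraries share junctions, this test does not cover the spread between exons. The shortest member had 111 bases, and 3293 multi-exon circles (30.9%) had a mean exon length below that. Without those the multi-exon value was 142.3 ± 0.527 bases and the difference was kept in 6 of 6 libraries. As molecules the single-exon circles were shorter than multi-exon circles, whose median total length was 443.2 ± 5.74 bases. This order did not hold per read. With each junction weighted by its reads the medians were 409.3 ± 96.7 bases for single-exon circles and 370.0 ± 17.3 bases for multi-exon circles (higher in 2 of 6 libraries, exact p = 0.5).

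**Figure D2:**
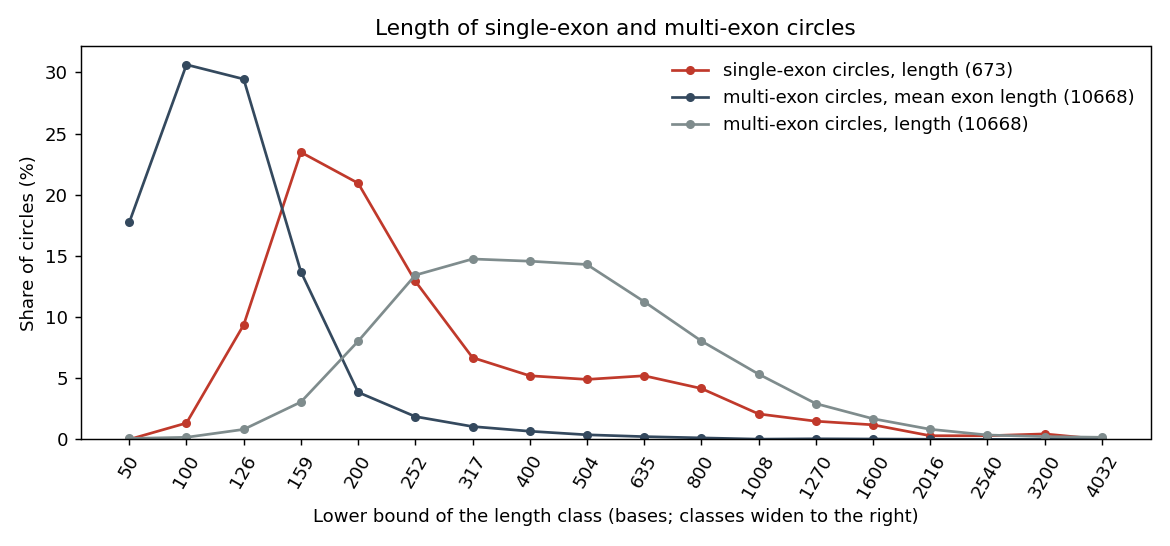
Share (%) of circles in classes of increasing length in bases for 673 single-exon circles (red), for the mean exon length of 10668 multi-exon circles (dark blue) and for their total length (grey). The class that starts at 159 bases is the fullest for single-exon circles and the one that starts at 100 bases for the mean exon of multi-exon circles.

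Longer single-exon circles had more reads. The part of the size selection of library fragments in this link was not tested either. Of the 178 members of 151 to 200 bases, 6 (3.37%) had at least 10 reads over the 6 libraries. The share was 15.6% for 201 to 300 bases, 26.1% for 301 to 500 bases and 39.6% for 501 to 1000 bases, and it was 32.5% for the 40 members above 1000 bases. Across the 673 members, which share the same libraries, the rank correlation of length with reads was 0.309. Exon number and length had a rank correlation of -0.255 over 626 members, and the median length was 366 bases for exon 1, 279 for exon 2, 237 for exon 3 and 208 for exon 11 and later. At least 10 reads were found for 36.7% of members from exon 1, 24.9% of those from exon 2, and 7.56% of those from exon 11 and later.

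**Figure D3:**
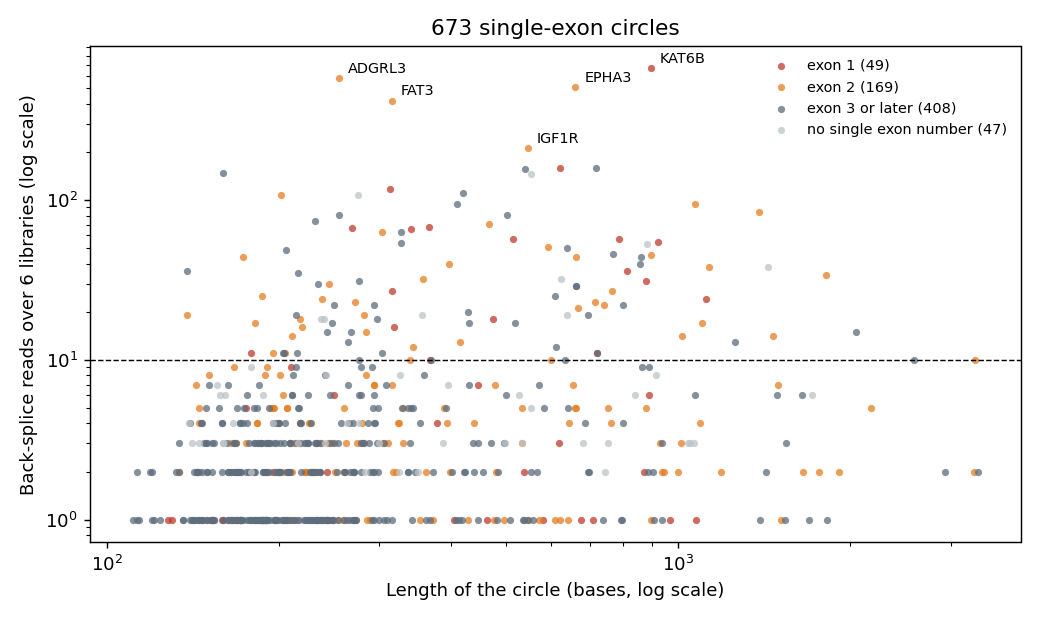
Length in bases (log scale) against back-splice reads summed over the 6 libraries (log scale) for each of the 673 single-exon circles, coloured by exon number, with a dashed line at 10 reads. The 5 members with the most reads are labelled by host gene, and those of 151 to 200 bases rarely pass the line (6 of 178).

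Flanking introns were listed with matching ends for 85 members, all of which had at least 2 reads. They were more abundant than the 673 members as a whole, with a median of 11 reads against 3. At least 10 reads were found for 55.3% of them, against 17.2%. The 2 introns beside the exon summed to a median of 32160 bases over these members, with quartiles of 11600 and 91350 bases, against 20761 bases over 1904 multi-exon circles with the same information. Within libraries the medians were 59227 ± 20262 bases for single-exon circles and 23052 ± 623 bases for multi-exon circles, longer in 6 of 6 libraries (exact sign-flip permutation test, p = 0.03125). The library medians of single-exon circles ranged from 33713 to 86827 bases. Here too the libraries share junctions, so the test does not cover the spread between genes. The sum was 143013 bases for the exon 2 circle of ADGRL3, 102422 bases for that of EPHA3 and 191177 bases for that of FAT3. The rank correlation of intron sum with reads over the 85 members was 0.499.

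The members had 616 host genes, of which 524 carried a gene symbol. A single member was found for 567 hosts, 2 members for 43 hosts, 3 for 4 hosts and 4 for 2 hosts. Members lay on 28 chromosomes, and 52.7% of them lay on chromosomes 1 to 5, against 57% of multi-exon circles. None lay on chromosome Z, where the table types every one of 543 junctions as intergenic. For 176 members (26.2%) no other exonic circle of the host was listed. Either the acceptor or the donor was also used by a multi-exon circle for 275 members (40.9%), the acceptor for 29.3% and the donor for 19.8% of all members. Of the 116 members with at least 10 reads, 23 were the only exonic circle of their host and 44 more (37.9%) had more reads than all other exonic circles of the host together.

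Reads were concentrated in few members. The 5 with the most reads held 29.1% and the 20 with the most reads held 50.1% of the 8175 single-exon reads. The first 3 belonged to 3 different gene classes. KAT6B, a histone acetyltransferase, had an exon 1 circle of 895 bases (chr6:5737053-5737947, plus strand) with 303 reads over the 3 E19 libraries (lowest 53) and 362 over the 3 E13 libraries (177, 85 and 100). In the authors' depth-normalised level (SRPBM) this was 24.3 ± 10.0 at E19 and 29.4 ± 10.2 at E13 (SD, n = 3 each). It took 81.8% of the exonic reads of its host, and its stages overlapped (log2 change -0.28, SE 0.39). ADGRL3, an adhesion G protein-coupled receptor known as latrophilin 3, had an exon 2 circle of 255 bases (chr4:12503085-12503339, plus strand) with 127, 162 and 111 reads at E19 and 54, 67 and 59 reads at E13. Its stages did not overlap, and the log2 change was 1.12 (SE 0.40, edgeR adjusted p = 0.217). It passed under 1 of 16 alternatives, DESeq2 (adjusted p = 0.0436), and with a library left out the edgeR adjusted p was 0.266 to 0.631.

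EPHA3, a receptor tyrosine kinase for ephrin-A ligands, had an exon 2 circle of 661 bases (chr1:91989988-91990648, minus strand) with 68, 22 and 45 reads at E19 and 179, 99 and 95 reads at E13. Every E19 library was below every E13 library. The log2 change was -1.49 (SE 0.42) and missed the threshold narrowly (edgeR adjusted p = 0.0515), while it passed under 6 of 16 alternatives, with adjusted p = 0.0185 for TMM factors and 0.000608 for DESeq2. It did not pass when any 1 of the 6 libraries was left out (adjusted p of 0.055 to 0.618, log2 change of -1.92 to -1.17), with a replicate block (0.0664) or at a minimum of 20 reads (0.187). The circle made up 86.1% of the exonic reads of its host, and no multi-exon circle covered its exon.

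Exons of related receptors and adhesion proteins recurred among the members. These families were picked after the values were seen. The ephrin receptors had 7 members from 5 hosts, and their 3 most abundant were EPHA3 (661 bases), EPHA4 (664 bases, 23 reads at E19 and 6 at E13) and EPHA5 (664 bases, 8 reads at E19 and 21 at E13). The rest were circles of EPHB6 (216, 339 and 207 bases) and EPHB1 (682 bases), with at most 5 reads each. FAT3, a giant protocadherin, had a circle of 315 bases (chr1:173803662-173803976, minus strand) with 97, 33 and 41 reads at E19 and 80, 22 and 144 at E13. This circle took 97.2% of the exonic reads of FAT3, and its paralog FAT1 also had a circle of 315 bases, with 7 reads at E19 and 0 at E13. A second and much longer circle was found in both genes, of 3312 bases in FAT3 (0 reads at E19 and 10 at E13) and 3290 bases in FAT1 (0 reads at E19 and 2 at E13). Exon numbers follow the listed transcript, so both circles of each FAT gene are numbered exon 2.

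The insulin receptor family gave a further pair. IGF1R, the receptor of insulin-like growth factor 1, had an exon 2 circle of 546 bases (chr11:17612965-17613510, minus strand) with 26, 34 and 31 reads at E19 and 50, 48 and 22 at E13. INSR, the insulin receptor, had a circle of 552 bases with 17, 34 and 26 reads at E19 and 28, 29 and 11 at E13, whose ends are not those of an exon numbered in the table. They were nearly the only circles of their genes, with 88.7% and 98.0% of the exonic reads, and the stages overlapped for both. The latrophilins ADGRL2 and ADGRL3 each had a circle of 214 bases and one of 801 bases. Their most abundant circles, both from exon 2, differed in length, with 255 bases in ADGRL3 (580 reads) and 173 bases in ADGRL2 (44 reads). The NMDA receptor subunits GRIN2A and GRIN2B had exon 2 circles of 593 and 599 bases. MID1 and MID2, which encode microtubule-associated ubiquitin ligases, had circles of 716 and 722 bases. Some of these were rare, with 9 and 4 reads over the 6 libraries for the ADGRL2 circles of 214 and 801 bases, 10 for GRIN2B and 11 for MID2. The teneurins had circles of 276 and 291 bases in TENM2 (31 and 9 reads) and 297 bases in TENM3 (3 reads). Lengths were less alike for the muscleblind proteins, with 814 bases in MBNL2 (36 reads) and 969 bases in MBNL3 (1 read).

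The overall level of single-exon circles overlapped between the stages. They made up 3.51%, 2.88% and 3.37% of exonic back-splice reads at E19 and 3.28%, 4.03% and 3.78% at E13. The means were 3.25% ± 0.327 at E19 and 3.70% ± 0.381 at E13 (SD, n = 3 each, two-sided exact permutation p = 0.3, where 0.1 is the smallest that 3 against 3 libraries allow). Of the exonic junctions, 5.36% ± 0.314 at E19 and 5.40% ± 0.236 at E13 were single-exon (exact p = 0.9). Per 1000000 mapped reads there were 52.95 ± 6.86 single-exon reads at E19 and 49.6 ± 3.67 at E13 (exact p = 0.6). With 1 library left out, the E19 minus E13 difference in reads per 1000000 mapped reads ranged from 1.17 (without E19 replicate 2) to 7.30 (without E19 replicate 3), against 3.35 with all 6 libraries. It was 1.57 without E19 replicate 1 and 1.25 without E13 replicate 2. The difference in the share of exonic reads was -0.447 percentage points with all 6 libraries, -0.262 without E19 replicate 2 and -0.280 without E13 replicate 2. It was -0.216 without the most abundant multi-exon circle of ENSAPLG00000008538, an alternative chosen after seeing the data. Relative to multi-exon circles their level was lower, with 6.72 ± 0.423 reads per junction and library against 10.7 ± 1.33 (SD over 6 libraries, lower in 6 of 6, exact sign-flip permutation p = 0.03125). This difference of -3.99 reads per junction was -2.86 without the same ENSAPLG00000008538 circle. The median reads per junction were 2.83 ± 0.408 against 3.50 ± 0.548 (lower in 4 of 6 libraries, exact p = 0.125). A total of 175 members had reads at both stages, 270 at E19 alone and 228 at E13 alone. The matching counts over all junctions are not given, so these are not read as particular to single-exon circles. Of those seen at 1 stage alone, 238 and 203 had their reads in 1 library. With at least 10 reads, 5 of 116 members had none at E13 and 9 had none at E19. Over all 3609 junctions with at least 10 reads, 265 had none at E13 and 161 had none at E19. The part of shallow counts, and of the unequal read totals of the libraries, in these numbers was not tested.

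**Figure D4:**
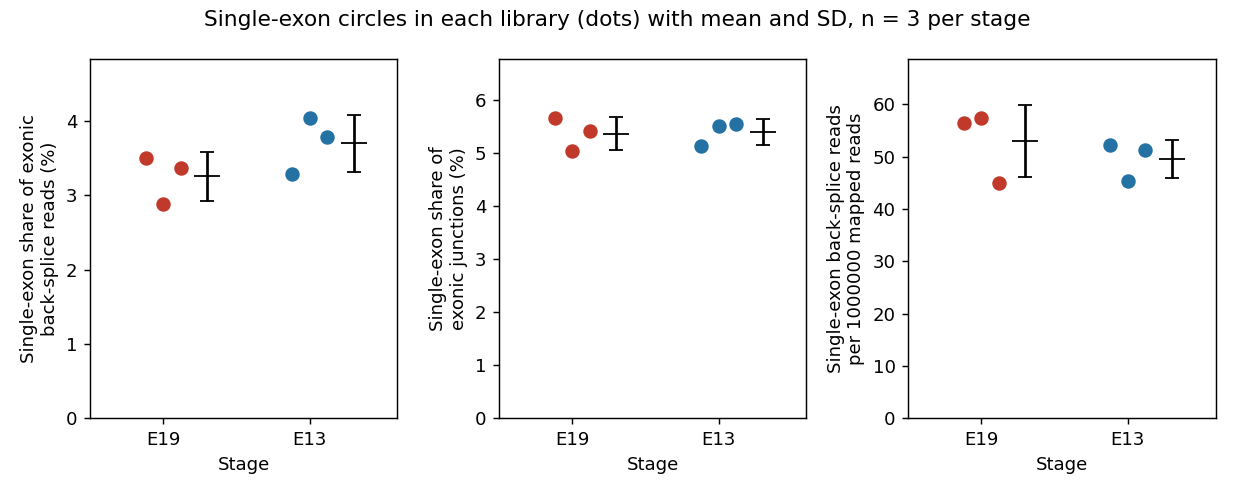
Single-exon circles in each library (dots) at E19 (left) and E13 (right), with mean and SD (n = 3 per stage), as a share of exonic back-splice reads (%), as a share of exonic junctions (%) and as reads per 1000000 mapped reads. The dots of the stages overlap in all 3 panels.

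The stages were compared member by member with the edgeR quasi-likelihood test on every junction of any type that had 10 or more reads in total, scaled to mapped reads and adjusted by Benjamini-Hochberg. In bulk tissue, fewer cells of a type and less circular RNA per cell cannot be told apart. The filter kept 116 of 673 members, and 2 of them passed an adjusted p of 0.05 (1.72%, against 1.16% of all 3609 junctions tested). Of these 1 was higher at E19 (0.776% of all junctions were) and 1 was lower (0.388% were). At the thresholds of the study's methods (log2 change of 1 or more in either direction, unadjusted p of at most 0.05) there were 15 members (12.9%, against 9.01% of all junctions). Of these 8 were higher at E19 (6.9% of members, against 6.01% of all junctions) and 7 were lower (6.03%, against 2.99%). Other scalings moved all junctions together. The median log2 change over the 3609 junctions was 0.26 when scaled to mapped reads, 0.097 with TMM factors and -0.039 when scaled to all back-splice reads of the library. With TMM factors 4 members were higher (3.45%, against 4.71% of all junctions) and 10 lower (8.62%, against 3.85%), and scaled to all back-splice reads 4 were higher (3.45%, against 3.82%) and 12 lower (10.3%, against 4.85%). At an adjusted p of 0.05 both of these scalings called 0 members higher and 2 lower, against 0.61% higher and 0.471% lower of all junctions with TMM factors and 0.388% higher and 0.499% lower when scaled to all back-splice reads. In 26 members the stages did not overlap in reads over mapped reads (22.4%, against 14.5% of all junctions), 13 of them higher at E19 (11.2%, against 9.64%) and 13 lower (11.2%, against 4.85%). The median log2 change was 0.22 over the 116 members and 0.26 over all junctions tested.

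BCL11B, a zinc finger transcription factor, gave the circle that was lower at E19. Its exon 1 circle of 366 bases (chr5:51218061-51218426, minus strand) had 3, 0 and 0 reads at E19 and 7, 26 and 32 reads at E13. The log2 change was -4.33 (SE 1.02, edgeR adjusted p = 0.00814). It was the only exonic circle listed for its host. The call held under 10 of 16 alternatives, among them TMM factors (adjusted p = 0.0111), DESeq2 (0.00137) and leaving out E19 replicate 1 (0.00724). It was lost when any of the other 5 libraries was left out (0.129 to 0.377) and at a minimum of 20 reads (0.118). BCL11A, its paralog, had an exon 2 circle of 330 bases with 3 reads at E19 and 2 at E13.

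ENSAPLG00000016422, a gene with no symbol in the files, gave the circle that was higher at E19. Its exon 2 circle of 303 bases (chr4:71933490-71933792, plus strand) had 21, 24 and 14 reads at E19 and 0, 0 and 4 reads at E13. The log2 change was 3.74 (SE 1.04, edgeR adjusted p = 0.0427). The acceptor was shared with a multi-exon circle of 23 reads, and the single-exon circle held 73.3% of the exonic reads of the host. The call held under 6 of 16 alternatives. It was lost with TMM factors (adjusted p = 0.115), scaled to all back-splice reads (0.221), and on leaving out any library except E13 replicate 3 (0.254 to 0.618).

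**Figure D5:**
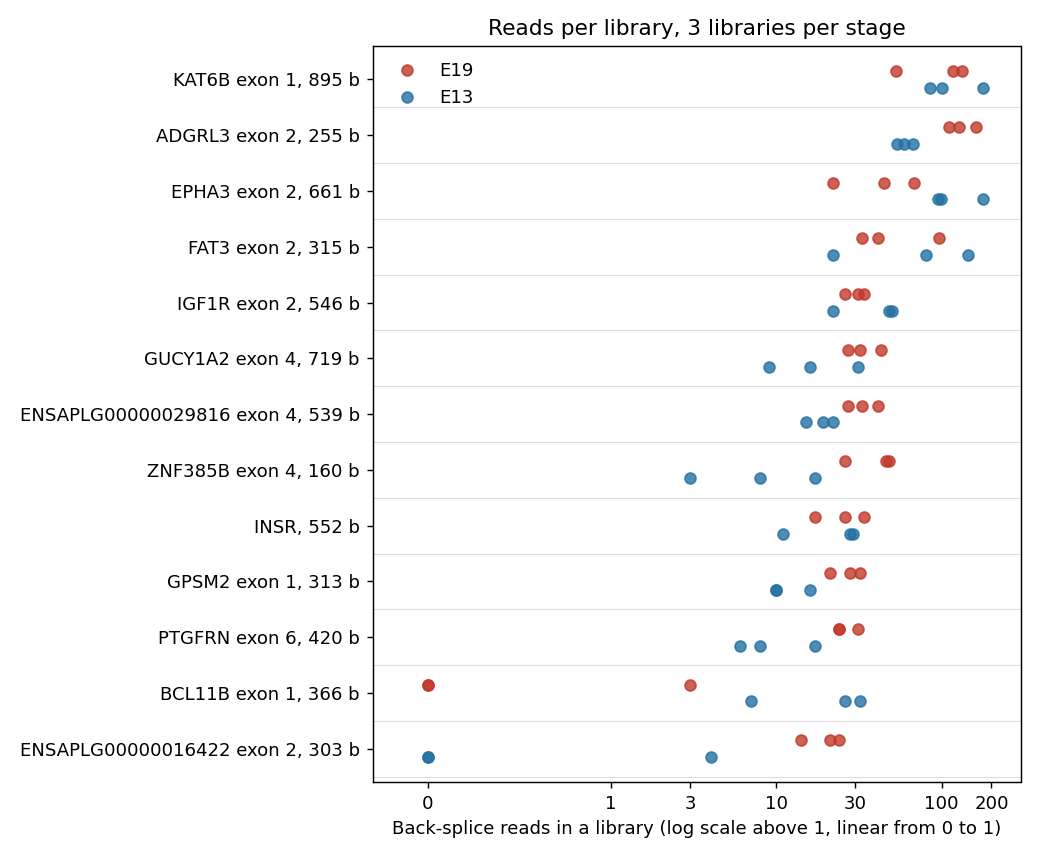
Back-splice reads in each library (log scale above 1) for single-exon circles among the 12 with the highest mean normalised level and for the 2 that passed the stage test, with E19 (red) above E13 (blue) in each row. For BCL11B the E19 libraries lie at 0 to 3 reads and the E13 libraries at 7 to 32, and for ENSAPLG00000016422 they lie at 14 to 24 and at 0 to 4.

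Other members whose stages did not overlap did not pass the adjusted threshold in the main test. ZNF385B, a zinc finger gene, had an exon 4 circle of 160 bases, among the 3 shortest with at least 10 reads. It had 46, 48 and 26 reads at E19 and 17, 3 and 8 at E13 (log2 change 2.09, SE 0.60, edgeR adjusted p = 0.0597). This circle passed under 2 of 16 alternatives, DESeq2 (adjusted p = 0.0116) and the counts of both IDs summed (0.045). With a library left out the edgeR adjusted p of this circle was 0.157 to 0.515. Unlike most abundant members it held only 19.3% of its host's exonic reads, and its donor was shared with multi-exon circles of 553 reads. PTGFRN, which encodes an immunoglobulin superfamily membrane protein, had 24, 31 and 24 reads at E19 and 6, 8 and 17 at E13 from exon 6. GPSM2, a gene of spindle orientation, had 21, 32 and 28 reads at E19 and 10, 16 and 10 at E13 from exon 1.

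ENSAPLG00000029816 had 41, 27 and 33 reads at E19 and 22, 15 and 19 at E13 from exon 4. CELSR1, a cadherin of planar cell polarity, had 3, 10 and 6 reads at E19 and 0 in each E13 library. With 3 reads over the E13 stage as the floor, the observed E19 reads were 6.20-fold higher (edgeR adjusted p = 0.434). NECTIN3, a cell adhesion molecule, had 5, 2 and 3 reads at E19 and 0 at E13 (3.26-fold higher by the same floor, edgeR adjusted p = 0.434). The floor covers neither the counting error of the E19 reads nor the spread between libraries. ZBTB10, which encodes a zinc finger protein, had 13, 16 and 6 reads at E19 and 6, 2 and 2 at E13. Its stages tie at 6 reads and were apart only by the scaling to mapped reads. All of these circles had reads in each E19 library, which follows from their choice by non-overlapping stages. GUCY1A2, a subunit of soluble guanylate cyclase and also among the most abundant hosts, had overlapping stages, with 32, 43 and 27 reads at E19 and 31, 9 and 16 at E13.

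Among members with fewer reads at E19, KANSL1, a scaffold of a histone acetyltransferase complex, had an exon 2 circle of 1387 bases with 9, 5 and 6 reads at E19 and 34, 10 and 20 at E13. ARID5B, a DNA-binding protein, had 6, 6 and 7 reads at E19 and 11, 19 and 25 at E13 from exon 3. The stages did not overlap for either circle, and the edgeR adjusted p was 0.434 for each.

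CASKIN1, which encodes a scaffold protein best known from neurons, had a circle from exon 10 of 216 bases that was its only exonic circle. It had 0 reads in each E19 library and 15, 2 and 18 at E13, at least 11.9-fold lower at E19 with 3 reads over the E19 stage as the floor (edgeR adjusted p = 0.067). DESeq2 was the only 1 of 16 alternatives to pass (adjusted p = 0.00785), and the other 15 gave 0.0644 to 0.55. FBLN2, the matrix protein fibulin 2, had 0 reads at E19 and 2, 6 and 6 at E13 from an exon 2 of 1468 bases. FBXL7, a ubiquitin ligase adaptor, had 0 at E19 and 5, 3 and 4 at E13. TTC7B shows how far 1 library can carry a member, since its circle of 138 bases had 36 reads in E13 replicate 1 and 0 in every other library of either stage.

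By function, hosts were read from 9 lists that held 163 members of 142 hosts, of which 33 were tested. Transcription factors had 38 members of 29 hosts, 8 of them tested. The BCL11B circle was the only called member of any list, 1 of 33 tested, where 1.16% of all junctions tested were called. Their most abundant members were ZNF385B, ARID5B, BCL11B and ZBTB10. The list of chromatin regulators had 15 members and 3 tested, and it left out KANSL1 (84 reads). It was led by KAT6B, by PHF3 (20, 19 and 4 reads at E19 and 8, 5 and 11 at E13) and by NSD2, a histone methyltransferase (5, 7 and 14 at E19 and 0, 2 and 4 at E13). Matrix, adhesion and guidance genes had the most reads of any list, 509 at E19 and 760 at E13 over 29 members. EPHA3 and FAT3 gave most of them, and none of 9 tested members was called (1.16% of all junctions tested were). EPHA3, with 135 reads at E19 and 373 at E13, was counted in this list and not among the kinases. The kinase and phosphatase list held 220 reads at E19 and 256 at E13, and the rank of the matrix list rests on that placement. PAPPA, a protease that cleaves IGF-binding proteins, had 21, 27 and 15 reads at E19 and 17, 7 and 7 at E13 from an exon 2 of 1069 bases, and ROBO1, a guidance receptor, had 9, 0 and 10 at E19 and 10, 27 and 7 at E13.

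The list of kinases and phosphatases had 24 members and 4 tested, among them IGF1R, INSR, PTPRK and HIPK2. It left out EPHA3, EPHA4 and EPHA5. Muscle fibre and cytoskeleton genes had 16 members and 4 tested, with 113 reads at E19 and 86 at E13. Of these, SLC8A3, a sodium-calcium exchanger, had an exon 2 circle of 1812 bases with 0, 21 and 5 reads at E19 and 3, 5 and 0 at E13, and MYO9A, an unconventional myosin, had 7, 8 and 5 at E19 and 9, 16 and 10 at E13. Ubiquitin system genes had 16 members and 3 tested, led by HECW2 (12, 11 and 13 reads at E19 and 9, 7 and 14 at E13). RNA processing genes had 14 members and 1 tested, MBNL2, a muscleblind splicing regulator, with 4, 0 and 17 reads at E19 and 4, 10 and 1 at E13. GTPase regulators had 12 members and 1 tested, TBC1D1, a Rab GTPase-activating protein of glucose transport, with 0, 10 and 4 reads at E19 and 16, 16 and 11 at E13 (log2 change -1.62, SE 0.95, edgeR adjusted p = 0.477).

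Of 9 genes listed as hosts of single-exon circles in mammals, HIPK2 and FAT1 had members. HIPK2, a homeodomain-interacting protein kinase, had an exon 2 circle of 1099 bases with 7, 2 and 1 reads at E19 and 0, 5 and 2 at E13, and it was the only exonic circle of the gene. The longest members with at least 10 reads were the FAT3 circle of 3312 bases, a TULP4 exon 14 circle of 2588 bases (1, 0 and 0 reads at E19 and 6, 3 and 0 at E13) and an ATXN1 exon 3 circle of 2047 bases (3, 7 and 4 reads at E19 and 0, 0 and 1 at E13). The shortest were the TTC7B circle, an ENSAPLG00000024100 circle of the same 138 bases (4, 1 and 6 reads at E19 and 0, 4 and 4 at E13) and the ZNF385B circle.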

How the data were processed

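Circular RNA was sequenced from 6 libraries, 3 per stage. Adapter and quality trimming was done by the authors with Cutadapt, alignment to the Ensembl duck genome with Bowtie 2 and TopHat 2, and junction calling with TopHat-Fusion, CIRCexplorer2 and CIRI. Their versions and the build name are not given in the sources read. Counts were deposited as raw numbers of reads across each back-splice junction. The signal called SRPBM, which scales spliced reads to mapping depth, is the authors' count over a library depth, and it served to rank members and to give the level of KAT6B. The circle size in bases was deposited by the authors and stands in another unit than the reads. Columns of the authors' own comparison of the stages were not used.

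The table joins 2 lists, with exon numbers or intron coordinates, whose starts differ by 1 base. A junction in both took the larger count in each library. Divisibility of exon lengths by 3 set the base from which starts are counted, and length is end minus start plus 1. Sizes of single exons inside multi-exon circles are not in the tables used, so their total size divided by their exon number was taken.

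Stages were compared with edgeR 4.0.16 (quasi-likelihood test) on all junctions with at least 10 reads, with mapped reads of the study as library size. The SE was the size of the log2 change over the square root of its F statistic. Library values were compared with exact permutation tests (scipy 1.17.1). Each library is 1 embryo. The method was tested on simulated counts. A fold against 0 reads uses 3 reads over that stage as the floor. It covers the counting error of that stage only and leaves out the spread between libraries. DESeq2 1.42.0, limma 3.58.1, other scalings, filters and treatment of IDs, a replicate block and leaving out each library were tried. Members and gene lists were chosen with earlier results of these data known. Named circles are those called, the 12 with the highest mean SRPBM, the 8 with the smallest p in each direction among those with non-overlapping stages, the 3 shortest and longest with at least 10 reads, at most 4 per gene list by reads, circles of hosts known in mammals and of hosts with at least 3 tested members. A circle that this rule names is left out of the text and is not reported here. The paralog families and BCL11A were added after their values were seen.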

Additional observations from a re-analysis of the deposited data

How the results depend on the processing

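The number of single-exon circles tested changed with the setting. The count of 2 called of 116 tested was 6 of 116 with DESeq2 (3 higher and 3 lower at E19). It was 5 of 130 with the counts of both IDs summed, 1 of 673 with no filter and 0 of 69 at a minimum of 20 reads. With a library left out it was 0 to 1 of 100 to 107. It stayed at 2 with TMM factors or total back-splice reads, both then lower at E19. At the thresholds of the study's methods the count of 15 of 116 became 24 of 151 with each ID as listed. It was 8 to 14 with a library left out, the 8 being without E19 replicate 2 (2 higher and 6 lower, of 100 tested). Shares over all junctions are not given for DESeq2, the other filters, the other treatment of IDs, the replicate block or libraries left out. The replicate numbers were not taken as a pairing, because deviations of libraries with the same number correlated at -0.0463, -0.0397 and -0.037; with a replicate block 1 circle was called, BCL11B, and 7 passed the study's thresholds (4 higher and 3 lower). The block left the difference in the share of exonic reads at -0.447 percentage points, E19 minus E13.

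Taken per 1000000 back-splice reads of the library rather than mapped reads, the E19 minus E13 difference of single-exon reads was -3822 (exact permutation p = 0.3). With each ID as listed it was 0.704 reads per 1000000 mapped reads, and the difference in the share of exonic reads was -0.756 percentage points, or -0.734 with the counts of both IDs summed (exact permutation p = 0.1 for both, the smallest possible). The difference in the share of junctions ranged from -0.176 to 0.135 percentage points with a library left out and changed sign without E19 replicate 2 (0.135), E13 replicate 2 (0.0288) or E13 replicate 3 (0.0427). The read-weighted median length was 39.3 bases higher for single-exon circles, the difference in median reads per junction was -0.667, and the read-weighted difference at exon 2 was 2.26 percentage points. With 5 libraries the exact permutation test cannot go below 0.0625, and the differences between single-exon and multi-exon circles, each in the main direction, ranged from -165.9 to -159.9 bases in length, 153.4 to 157.8 bases in exon length, -4.32 to -3.72 reads per junction, 4.34 to 5.37 percentage points at exon 1, 5.22 to 7.15 at exon 2 and 30592 to 41378 bases of flanking intron. With a library left out the log2 change ranged from -0.534 to 0.0468 for KAT6B (above 0 without E19 replicate 2 or E13 replicate 1), from -1.16 to 0.168 for FAT3 (above 0 without E13 replicate 3) and from -0.187 to 0.427 for INSR (below 0 without E19 replicate 2 or E13 replicate 3). INSR was also below 0 with TMM factors (-0.0431), total back-splice reads (-0.195) and DESeq2 (-0.0735). The comparison with all single exons of multi-exon circles was not run, since their sizes are not in the tables used. Excluding the 4 junctions whose other ID has 2 exons, chosen after seeing the data, left 2 called. The cause of these changes was not tested. With a median of 3 reads, the same as for multi-exon circles, most single-exon circles are too shallow for a stage comparison.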
